A study of Mus musculus with 7 samples.

Results

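The Cyp2b family of cytochrome P450 enzymes and the nuclear receptors that control it were followed in livers of mice without miR-122, the most abundant microRNA of hepatocytes. Members were all probe sets annotated with exactly 1 of the symbols Cyp2b9, Cyp2b10, Cyp2b13, Cyp2b19, Cyp2b23, Nr1i3 and Nr1i2, which gave 9 of 45101 probe sets and 6 of the 7 genes. No probe set used here carried Cyp2b23 alone, and 0 probe sets with several symbols included a member. The family was chosen by the knockout against wild-type differences of Cyp2b9 and Cyp2b13, so the members' differences between the genotypes are given as a description and not as a test. The livers came from 4 miR-122 knockout mice (animals KO-03, KO-90, KO-91, then KO-94), set against 3 wild-type mice (WT-27, WT-103 and WT-104). All animals were 2 months old and of B6/129 background, the livers had been frozen, and each animal had 1 Affymetrix array. The labels name neither sex, diet, litter nor treatment, and do not say how the knockout allele was made or whether other tissues carry it.

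CYP2B enzymes are membrane-bound monooxygenases of the endoplasmic reticulum that oxidise drugs, steroids and other lipophilic compounds. Nr1i3, the constitutive androstane receptor (CAR), waits in the hepatocyte cytoplasm and enters the nucleus after exposure to phenobarbital-like inducers, where it binds DNA together with the retinoid X receptor. Its standard readout in mouse liver is Cyp2b10. Nr1i2, the pregnane X receptor (PXR), is a related receptor that is activated by ligands and shares many target genes with CAR. Cyp2b9 and Cyp2b13 are known in mouse liver as female-predominant genes that depend on the pattern of growth hormone secretion.

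All 5 Cyp2b genes lie on mouse chromosome 7 within a cluster of P450 genes. In the RefSeq annotation of assembly GRCm38.p6, Cyp2b10, Cyp2b13 and Cyp2b9 are neighbours in that order among protein-coding genes, with Cyp2b23 and Cyp2b19 further along and 3 Cyp2b pseudogenes on the same chromosome. Nr1i3 is on chromosome 1 and Nr1i2 on chromosome 16. Such paralogs share sequence, so probes for 1 gene can bind transcripts of another. The proximal promoters show how unequal the relations are within the family. The 3 sequences below are shown because Cyp2b9 and Cyp2b13 differed from Cyp2b10 in direction between the genotypes. Each is the RefSeq window (GRCm38.p6, plus strand) of the 250 bases before the annotated transcription start, from chr7:26173159-26173408 for Cyp2b9, chr7:26061245-26061494 for Cyp2b13 and chr7:25897408-25897657 for Cyp2b10. Capitals mark the hexamer AGGTCA, the core element to which nuclear receptors bind.
Cyp2b9: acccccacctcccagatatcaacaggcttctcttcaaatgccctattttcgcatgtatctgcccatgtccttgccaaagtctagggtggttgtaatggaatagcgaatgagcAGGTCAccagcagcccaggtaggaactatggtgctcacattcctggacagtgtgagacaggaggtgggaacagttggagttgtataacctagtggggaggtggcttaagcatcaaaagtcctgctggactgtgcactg
Cyp2b13: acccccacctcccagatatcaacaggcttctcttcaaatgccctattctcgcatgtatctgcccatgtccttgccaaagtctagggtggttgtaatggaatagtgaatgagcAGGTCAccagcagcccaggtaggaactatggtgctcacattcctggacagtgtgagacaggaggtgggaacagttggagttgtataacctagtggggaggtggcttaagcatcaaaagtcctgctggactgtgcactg
Cyp2b10: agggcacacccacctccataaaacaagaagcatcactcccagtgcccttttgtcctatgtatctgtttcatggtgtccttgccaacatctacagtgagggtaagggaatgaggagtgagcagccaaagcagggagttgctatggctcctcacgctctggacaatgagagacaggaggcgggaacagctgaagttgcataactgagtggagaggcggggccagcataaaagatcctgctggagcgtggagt

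The windows of Cyp2b9 and Cyp2b13 were identical at 248 of 250 bases, and differed only by T48C and C104T, where positions count from 1 at the 5′ end and the base of Cyp2b9 comes first. In a global alignment Cyp2b9 and Cyp2b10 were identical in 70% of 260 columns. Alignments of Cyp2b9 with Cyp2b23 and with Cyp2b19 gave 63% and 62.7%, against 47.7% with the unrelated window of Nr1i3. AGGTCA, searched on both strands, occurred once in the windows of Cyp2b9, Cyp2b13, Cyp2b23 and Cyp2b19, beginning 138, 138, 164 and 121 bases before the start. It was in neither the Cyp2b10, the Nr1i3 nor the Nr1i2 window, and was in 14% of 32851 promoter windows of the same length. The core promoter motif ATAAAA began 233 and 27 bases before the start in Cyp2b10 and was not in the windows of Cyp2b9, Cyp2b13, Nr1i3 and Nr1i2. It also began 54 bases before the start in Cyp2b23, and 246 and 9 bases before it in Cyp2b19, and was in 17% of all windows. AGTTCA, another nuclear receptor hexamer, and TTCNNNGAA, the STAT5 motif, were in none of the 7 member windows, and in 11.8% and 7.02% of all windows. These letters describe short windows and say nothing about binding or about elements further upstream.

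Cyp2b9 and Cyp2b13 were far higher in every knockout liver, whereas Cyp2b10 had a lower mean in knockout. CAR activity itself was not measured. Log2 values of the 9 probe sets, as the authors normalised them by robust multi-array analysis (RMA), are given per animal, always with KO-03 and KO-90 ahead of KO-91 and KO-94, and with WT-27 ahead of WT-103 and WT-104. A difference of 1 is a doubling. Cyp2b9 (probe set 1419590_at) had log2 values of 9.81, 10.25, 9.20 and 10.62 in the knockouts, against 3.44, 3.45 and 5.18 in WT-27, WT-103 and WT-104. All knockout values lay above all wild-type values, with a gap of 4.02 between the groups, and WT-104 stood 1.73 above the mean of the other wild types. The means were 9.97 ± 0.61 (SD, n = 4) in knockout and 4.03 ± 1.0 (SD, n = 3) in wild type. Detection calls were not used here, so a floor was set on each array, at its brightest probe set among 27 Bacillus subtilis controls (4.71 to 5.23), and a level under it was taken only as a bound. The median of these controls was 2.86 to 3.14. The same control gave the floor on every array, above that array's own median, so a level under the floor need not mean absence. WT-27 and WT-103 lay under that floor. With both raised to it, Cyp2b9 was at least 32.8-fold higher in knockout, or 5.04 on the log2 scale. In whole liver RNA, a change in the number of cells of a type and in the RNA per cell cannot be told apart.

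Cyp2b13 (1449479_at) had log2 values of 7.08, 8.65, 8.19 and 9.64 in the knockouts, against 4.66, 5.10 and 4.94 in WT-27, WT-103 and WT-104. The groups did not overlap, and the knockouts spread over a range of 2.56, with KO-03 lowest and KO-94 highest. The means were 8.39 ± 1.06 (SD, n = 4) in knockout and 4.90 ± 0.22 (SD, n = 3) in wild type. WT-27 and WT-104 lay under the floor, so knockout was at least 10.7-fold higher, or 3.42 on the log2 scale. The spread of Cyp2b13 within knockout was larger than in 99.6% of probe sets, and that of Cyp2b9 larger than in 97.1%. KO-94 had the highest value of both genes, while the lowest value of Cyp2b9 was in KO-91 and that of Cyp2b13 in KO-03. The probe sequences were not used here, so how far the probes for Cyp2b9 and Cyp2b13 read the transcript of the other gene was not tested. Their profiles over the 7 arrays, each centred on its own mean, lay a root mean square distance of 1.43 log2 units apart.

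Cyp2b10 was measured by 3 probe sets, all with a lower mean in knockout. In 1425645_s_at the log2 values were 7.54, 6.78, 6.63 and 6.56 in the knockouts, against 7.61, 7.54 and 8.41 in WT-27, WT-103 and WT-104. KO-03 was level with the lower wild types, the other knockouts lay below them, and WT-104 was the highest. The means were 6.88 ± 0.45 (SD, n = 4) in knockout and 7.85 ± 0.48 (SD, n = 3) in wild type, a difference of -0.97 ± 0.28 (SE). In 1422257_s_at the values were 6.54, 5.95, 5.54 and 5.51 in the knockouts, in the same order, against 6.64, 6.57 and 7.56 in the wild types (difference -1.04 ± 0.31, SE). In 1451787_at they were 7.33, 6.84, 6.69 and 6.73 in the knockouts, against 7.30, 7.32 and 8.14 in the wild types (difference -0.69 ± 0.24, SE). KO-03 there lay above WT-27 and WT-103. The suffix _s_at marks probe sets whose probes match several transcripts. The pair with that suffix and the probe set without it differed in the same direction. Their centred profiles lay 0.09 to 0.22 apart, and 1425645_s_at and 1451787_at were designed on the same accession, so the 3 are not independent measurements. The size of these differences depended on single animals. Without WT-104 the differences were -0.69, -0.72 and -0.41 in 1425645_s_at, 1422257_s_at and 1451787_at, and without KO-03 they were -1.19, -1.25 and -0.83. KO-03, the knockout with the least Cyp2b13, had the most Cyp2b10, and KO-94, with the most Cyp2b13, had the least Cyp2b10 in the 2 _s_at probe sets. The 4 knockouts are too few to test that order.

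Cyp2b19, an arachidonic acid epoxygenase of differentiating keratinocytes, lay under the floor on all 7 arrays. Its log2 values were 2.86, 2.87, 2.98 and 3.07 in the knockouts and 3.13, 3.20 and 3.03 in the wild types. No fold is given, because both groups were at background.

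**Figure D1:**
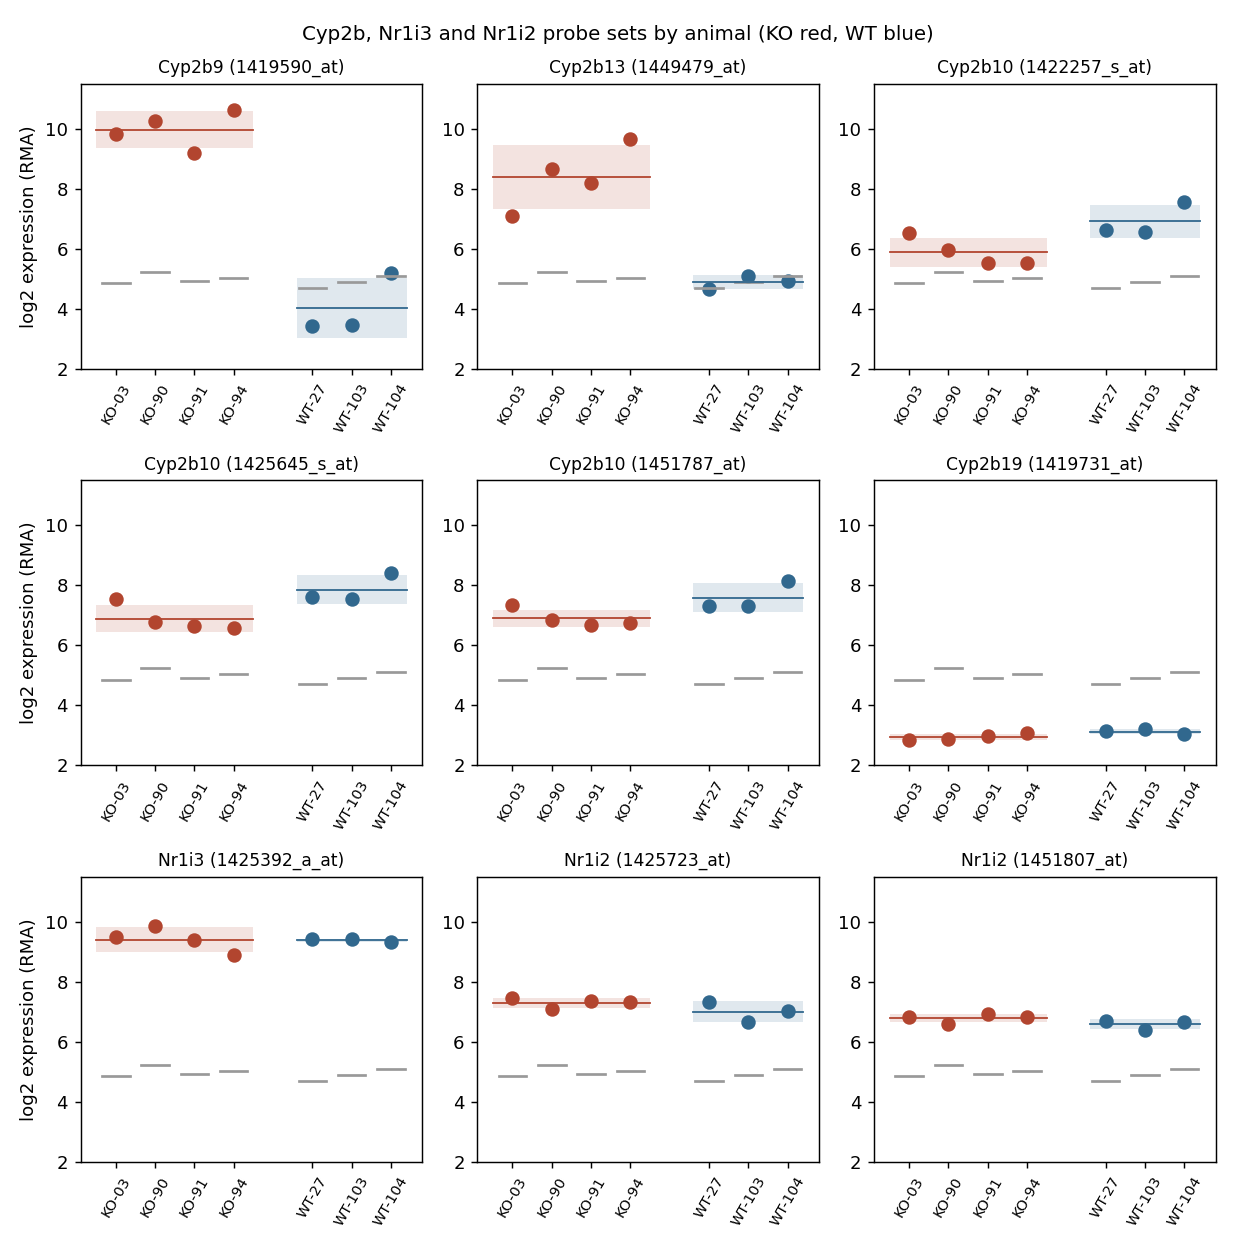
Log2 expression of each member probe set (vertical axis) in each animal (horizontal axis), with knockouts on the left in red and wild types on the right in blue. Lines are group means, shaded bands are ± 1 SD, and grey ticks mark the floor of each array. Cyp2b9 and Cyp2b13 are separated by genotype, and Cyp2b10 has a lower mean in knockout, with KO-03 close to the lower wild types. Cyp2b19 is under the floor, and Nr1i3 and Nr1i2 overlap.

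Transcripts of the receptors themselves did not separate the genotypes. Nr1i3, measured by 1425392_a_at, had log2 values of 9.48, 9.87, 9.39 and 8.88 in the knockouts, against 9.41, 9.41 and 9.32 in WT-27, WT-103 and WT-104. The knockouts lay on both sides of the wild types, with KO-90 above and KO-94 below all of them. The range was 0.997 within knockout and 0.0945 within wild type. The means were 9.40 ± 0.41 (SD, n = 4) in knockout and 9.38 ± 0.05 (SD, n = 3) in wild type. The difference of 0.02 ± 0.21 (SE) was -0.13 without KO-90 and 0.20 without KO-94, so its direction was not settled. KO-94, with the least Nr1i3, had the most Cyp2b9 and Cyp2b13, a relation that was not tested. In KO-94 the means of the phase I, conjugation and transporter lists described below were also the lowest among the knockouts.

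Nr1i2 in 1425723_at had log2 values of 7.47, 7.08, 7.34 and 7.31 in the knockouts, against 7.34, 6.65 and 7.02 in WT-27, WT-103 and WT-104. WT-27 lay within the range of the knockouts. The difference was 0.30 ± 0.17 (SE), and 0.12 without WT-103. In 1451807_at the values were 6.82, 6.60, 6.92 and 6.82 in the knockouts against 6.71, 6.39 and 6.66 in the wild types, a difference of 0.20 ± 0.13 (SE). Both probe sets of Nr1i2 therefore overlapped between the genotypes. A transcript level does not report the location or activity of either receptor.

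In limma's fit over all 45037 probe sets, with Benjamini-Hochberg adjustment and a threshold of 0.05, 1.61% of probe sets passed. Higher in knockout were 1.29% and lower 0.32%. Of the 9 member probe sets, those of Cyp2b9 and Cyp2b13 passed, which were 2 of 9, and since this contrast chose them the count is a description. The count was 1, with Cyp2b9 alone, when KO-90, WT-27 or WT-103 was left out. It was 4, with both _s_at probe sets of Cyp2b10, when KO-03 was left out. In 4 of the 9 the genotypes did not overlap, as in 12.8% of all probe sets, but in 1425645_s_at and 1422257_s_at of Cyp2b10 the gap was no more than 0.03.

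**Figure D2:**
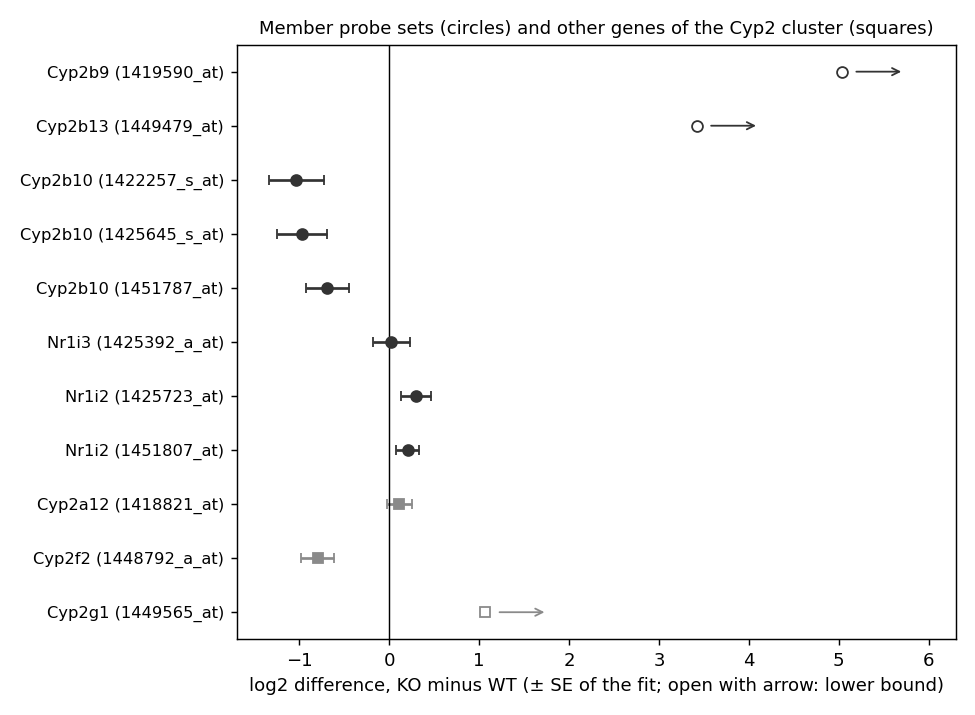
Log2 difference of knockout minus wild type (horizontal axis) for member probe sets (circles) and other genes of the Cyp2 cluster (squares), with standard errors of the fit as bars. Open points with an arrow are lower bounds, used where 2 wild types lay under the floor, and Cyp2b19 and Cyp2s1, under it on all arrays, are left out. The bounds of Cyp2b9 and Cyp2b13 stand far to the right, and the 3 Cyp2b10 probe sets and Cyp2f2 lie left of 0.

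The measured neighbours of the Cyp2b genes in the Cyp2 cluster held no call. Of 8 other listed Cyp2 genes, 4 had a probe set of their own, and 0 of these passed in either direction in limma, with 2 of 4 at an unadjusted p under 0.05. Cyp2a4, Cyp2a5, Cyp2a22 and Cyp2t4 had no probe set of their own, so nothing is said of them. Gene counts here and below take 1 probe set per gene, the brightest on average. Over all 18193 genes so represented, 1.87% were higher and 0.511% lower in knockout, and the median difference was 0.01. Of these genes 16.3% were at an unadjusted p under 0.05, and 52.5% had a positive difference. Cyp2f2, a P450 of periportal hepatocytes and airway club cells, averaged 12.85 ± 0.35 (SD, n = 4) in knockout and 13.65 ± 0.05 (SD, n = 3) in wild type (limma adjusted p = 0.0818). Cyp2g1, an olfactory P450, had 5.48, 7.58, 6.43 and 5.58 in the knockouts, against 4.32, 4.72 and 5.99 in WT-27, WT-103 and WT-104 (limma adjusted p = 0.366). Its highest wild-type value was in WT-104, as for Cyp2b9 and Cyp2b10, and it was above the values of KO-03 and KO-94. Cyp2a12, a hepatic steroid hydroxylase, differed by 0.11 ± 0.14 (SE), and Cyp2s1 lay under the floor on all arrays.

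Known CAR and PXR responsive enzymes moved in single genes and in both directions. Of 19 measured phase I enzymes, 1 rose, 1 fell and 17 did not pass, with a list median of -0.01. In limma 5 of the 19 were at an unadjusted p under 0.05 (16.3% of all genes were). The 17 include Cyp2c65, Cyp3a16 and Cyp3a44, which lay under the floor on all arrays. Alas1, the first enzyme of haem synthesis, which supplies the P450 cofactor, rose, with log2 values of 11.87, 11.30, 12.15 and 11.75 in the knockouts, against 9.97, 10.88 and 10.18 in the wild types. All knockouts lay above all wild types, and the difference was 1.42 ± 0.25 (SE, limma adjusted p = 0.0315). Its second probe set differed by 1.08 and did not pass (limma adjusted p = 0.106). Ces2a, a carboxylesterase that CAR and PXR activators induce in mouse liver, fell by 1.29 ± 0.21 (SE, limma adjusted p = 0.0233), with 11.13, 10.53, 10.80 and 10.14 in the knockouts, against 12.01, 11.82 and 12.01 in the wild types. Both calls depended on single animals. Alas1 lost its call without WT-27, WT-104, KO-91 or KO-94 (limma adjusted p up to 0.114). Ces2a lost its call without any wild type, KO-90 or KO-91 (limma adjusted p up to 0.0981). Cyp3a13 and Cyp1a2 differed by 0.49 ± 0.15 (SE) and 0.50 ± 0.16 (SE) and did not pass (limma adjusted p = 0.198 and 0.21).

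Of 16 measured conjugation enzymes, 0 passed in limma, with 7 at an unadjusted p under 0.05 (16.3% of all genes were) and a list median of -0.12. Papss2, which makes the sulfate donor for sulfotransferases, was at -1.10 ± 0.23 (SE, limma adjusted p = 0.0544), and another 2 of its 4 probe sets passed, at -1.34 and -1.21 (limma adjusted p = 0.0135 for both). The glutathione transferase Gstm3 was at 0.83 ± 0.19 (SE, limma adjusted p = 0.075), and its other probe set passed at 1.0 (limma adjusted p = 0.03). Gstm6 was at -0.44 and Gstm2 at 0.62 (limma adjusted p = 0.102 and 0.204). Sult1e1 lay under the floor on all arrays.

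Of 9 measured transporters, 0 passed in limma, with 4 at an unadjusted p under 0.05 (16.3% of all genes were) and a list median of 0.01. The organic anion importer Slco1a4, which PXR and CAR activators induce in mouse liver, averaged 6.82 ± 0.64 (SD, n = 4) in knockout and 8.27 ± 0.17 (SD, n = 3) in wild type (limma adjusted p = 0.0574). Slco2b1 was at -0.57 and the exporter Abcg2 at -0.68 (limma adjusted p = 0.0667 and 0.111). Abcb1a and Abcb1b lay under the floor on all arrays.

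Among 17 measured metabolic and growth genes that respond to CAR or PXR activators, 3 rose, 0 fell and 14 did not pass, and the list median was 0.05. In limma 5 of the 17 were at an unadjusted p under 0.05 (16.3% of all genes were), and Pnpla3 lay under the floor on all arrays. The cell cycle regulator cyclin D1, Ccnd1, had log2 values of 8.95, 9.16, 9.37 and 9.40 in the knockouts, against 7.42, 7.60 and 6.94 in the wild types. Its difference was 1.90 ± 0.18 (SE, limma adjusted p = 0.00222), and its other 2 probe sets differed by 1.96 each. The others that rose were the imprinted long noncoding RNAs Rian and Meg3, which come from the same chromosomal domain and are used in mouse liver as markers of CAR activation by phenobarbital. Rian had 7.65, 7.76, 7.35 and 5.49 in the knockouts and lay under the floor in all wild types, a difference of at least 2.16 on the log2 scale. KO-94 had the lowest value of Rian, at 5.49, and of Meg3, at 9.83, whereas it had the highest values of Cyp2b9 and Cyp2b13. Leaving out any wild type, KO-90 or KO-91 ended the call of Rian, as did leaving out WT-103, WT-104, KO-90 or KO-91 for Meg3 (limma adjusted p up to 0.0836 and 0.0925). The lipogenic desaturase Scd1, at -2.12 ± 0.54 (SE), did not pass (limma adjusted p = 0.11).

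Partners and upstream regulators of the receptors showed 1 call. Of 15 measured partners and coregulators, 0 passed in limma, with 4 at an unadjusted p under 0.05 (16.3% of all genes were) and a list median of 0.03. Rxra, the retinoid X receptor with which CAR and PXR bind DNA, was at 0.32 ± 0.13 (SE, limma adjusted p = 0.326). Gadd45b, a stress protein and CAR coactivator, was at 0.83, and the coactivator Ppargc1b at -1.11 (limma adjusted p = 0.0864 and 0.106). The growth factor receptor Egfr, through which phenobarbital acts on CAR, was at -0.57 (limma adjusted p = 0.314). Of 10 measured transcription factors that regulate Nr1i3 or Nr1i2, 0 rose, 1 fell and 9 did not pass, with a list median of -0.19. In limma 3 of the 10 were at an unadjusted p under 0.05. The pioneer factor Foxa2 fell by 1.08 ± 0.21 (SE, limma adjusted p = 0.0427), with 7.46, 7.62, 7.91 and 8.31 in the knockouts against 8.94, 9.13 and 8.66 in the wild types. That call was lost without any wild type, KO-90 or KO-91 (limma adjusted p up to 0.195). The circadian factor Dbp was at 2.10 ± 0.70 (SE, limma adjusted p = 0.229), with 9.49, 7.61, 8.12 and 5.96 in the knockouts, against 5.07, 5.60 and 6.42 in the wild types. Hnf4a and Foxa1 were at 0.30 and -0.65 (limma adjusted p = 0.403 and 0.335).

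**Figure D3:**
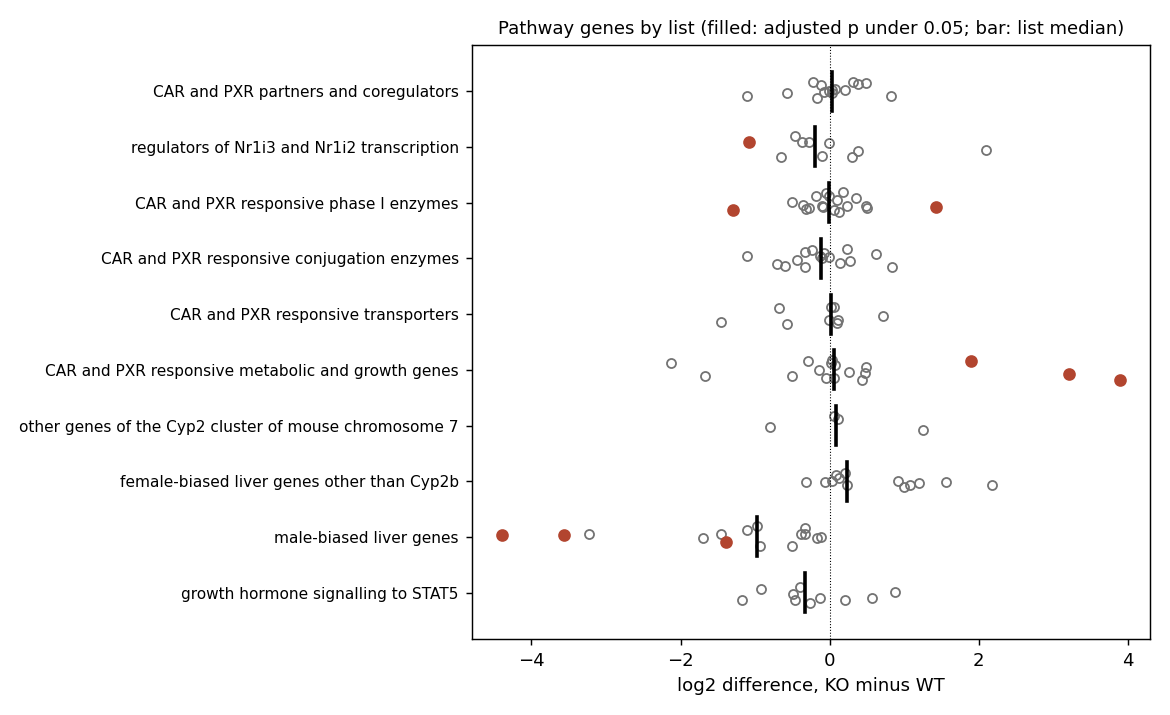
Log2 difference of knockout minus wild type (horizontal axis) for every measured gene of the 10 pathway lists (rows). Filled points passed limma's adjusted p of 0.05, open points did not, and black bars are list medians; values under the floor enter as measured. The CAR and PXR lists lie around 0 with few calls, and the male-biased genes all lie left of 0.

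Cyp2b9 and Cyp2b13 are female-predominant in mouse liver, so other sex-biased liver genes were set beside them. All 7 arrays carried the Y-linked transcript Eif2s3y, at 7.61 to 8.69 in knockout and 8.55 to 9.05 in wild type, and Xist lay at 5.13 to 5.63 in knockout and 4.99 to 5.72 in wild type. Of 13 measured female-biased genes outside the Cyp2b family, 0 passed in limma, with 5 at an unadjusted p under 0.05 (16.3% of all genes were). The list median was 0.23, and 11 had a positive difference (52.5% of all genes). Those 11 included 4 genes under the floor on all arrays, Cyp3a44, Cyp3a16, Sult3a1 and Slc22a27. Cyp3a44 was also the median gene, so neither value stands for measured expression alone. The flavin monooxygenase Fmo2 was at 1.07 ± 0.24 (SE, limma adjusted p = 0.0731), and 3 of its other 4 probe sets passed, at 2.11, 2.67 and 2.43. The acyl-CoA thioesterase Acot3 was at 1.56 (limma adjusted p = 0.253). The transcription cofactor Tox and the hydroxyacid oxidase Hao2 lay mostly under the floor, and no difference is given for them. In the male-biased list 3 of 15 measured genes fell, 0 rose and 12 missed the threshold, with a median of -0.97 and 0 positive differences. In limma 11 of the 15 were at an unadjusted p under 0.05. The glucuronosyltransferase Ugt2b38 fell by at least 3.73, the fatty acid elongase Elovl3 fell by 3.56 ± 0.43 (SE) and the fatty acid hydroxylase Cyp2u1 fell by 1.39 ± 0.18 (SE), with limma adjusted p of 0.000678, 0.00653 and 0.00828. Cyp4a12a was at -0.97 ± 0.21 (SE, limma adjusted p = 0.062). The mean of the male-biased list stood at -0.75, -1.94, -1.20 and -1.60 in the knockouts relative to the wild-type mean. For that list WT-27, WT-103 and WT-104 stood at -0.08, -0.14 and 0.22. The female-biased list mean stood at 0.53, 1.11, 0.36 and 0.53 in the knockouts. In the wild types it stood at 0.34, -0.22 and -0.11, so WT-27 was close to KO-91. The smallest shift was in KO-03 for the male-biased list, Cyp2b13 and Cyp2b10, and in KO-91 for the female-biased list and Cyp2b9.

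Genes whose values ran most like Cyp2b9 over the 7 arrays were found by the root mean square distance between profiles centred on their own means. The search covered 16338 genes, with the members and predicted or clone-named symbols left out. Cyp2b13, as a member, was therefore not ranked, though at 1.43 it lay nearer to Cyp2b9 than Lcn2 did. The nearest outside the members were the fetal growth factor Igf2 at a distance of 0.957, Cdc42ep5 at 1.34, Lcn2 at 1.45, Asns at 1.48 and S100a8 at 1.49. Cyp2b9 itself lay 3.02 from a flat profile. Igf2 had log2 values of 10.27, 12.13, 11.23 and 13.36 in the knockouts, against 6.61, 6.53 and 6.20 in the wild types, and KO-94 and then KO-90 were highest in both genes. S100a8 is also 1 of the neutrophil markers described below. For Cyp2b13, a search added after its values were seen, the nearest was the microvillus protein villin, Vil1, at 0.26, against 1.87 from a flat profile. Vil1 had log2 values of 6.22, 7.39, 6.70 and 8.34 in the knockouts, against 3.99, 4.03 and 3.67 in WT-27, WT-103 and WT-104. The order of the knockouts was the same as for Cyp2b13, but all wild-type values of Vil1 lay under the floor. Next were Bicc1 at 0.501, Tspan8 at 0.545, Lrtm2 at 0.566 and Scara3 at 0.571. Tspan8 and Scara3 also lay under the floor in all wild types. The genes nearest to Cyp2b10 (1425645_s_at) were Daglb at 0.241, Olig1 at 0.241, Mgmt at 0.258, Slc22a7 at 0.263 and Cadm4 at 0.269, against 0.62 from a flat profile. Olig1 lay under the floor on all arrays but WT-104, and Daglb and Cadm4 lay under or near it in some knockouts. Slc22a7, an organic anion transporter, had 9.23, 8.71, 8.57 and 8.60 in the knockouts, against 8.82, 9.12 and 9.98 in the wild types, with WT-104 the highest and KO-03 the highest knockout, as in Cyp2b10. The distance was the ground on which these genes were picked, so no test of their genotype difference is given.

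**Figure D4:**
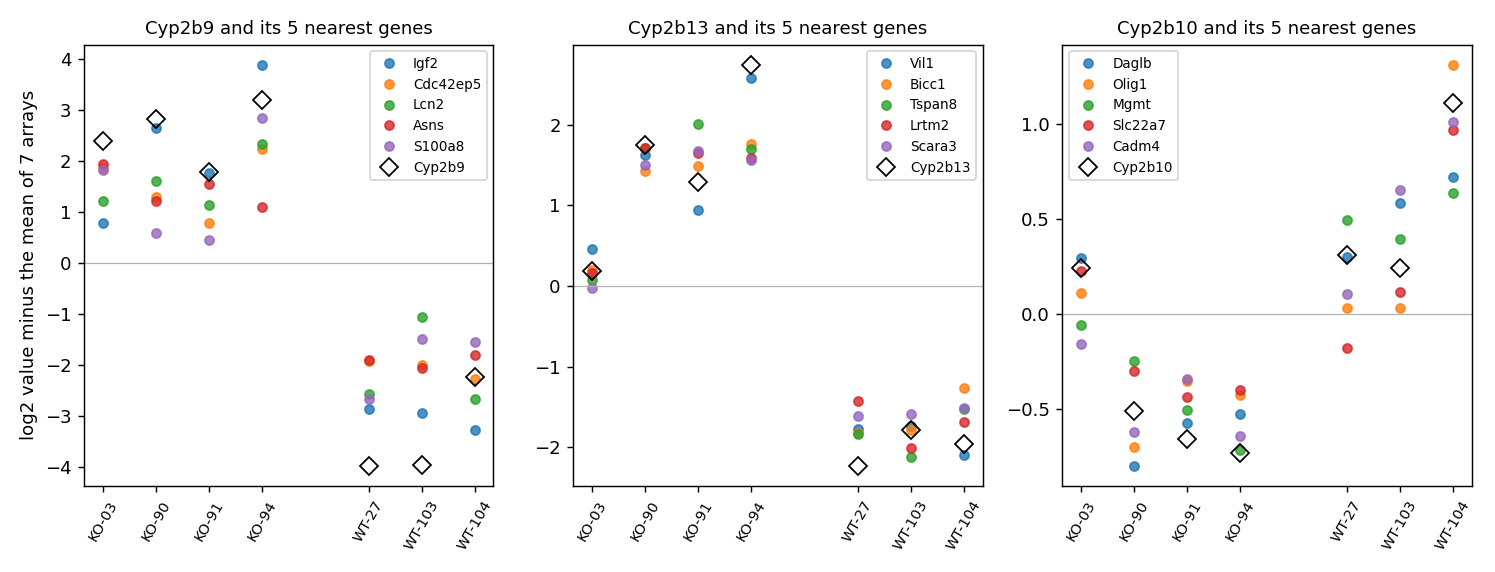
Log2 values minus the mean of the 7 arrays (vertical axis) per animal (horizontal axis, knockouts left) for Cyp2b9, Cyp2b13 and Cyp2b10 (open diamonds) and their 5 nearest genes outside the members (coloured points). Vil1 follows Cyp2b13 through the knockouts and lies under the floor in the wild types. The genes nearest to Cyp2b9 spread widely around it.

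The arrays carried the markers of liver. The 6 measured hepatocyte markers had a mean log2 level of 13.67 to 13.72 in knockout and 13.47 to 13.65 in wild type, and 0 passed in limma. Several other cell types had markers that rose beside Cyp2b9 and Cyp2b13. Of 5 bile duct cell markers 2 rose (mean level 4.73 to 5.69 in knockout and 4.19 to 4.41 in wild type, with Krt7 and Cftr under the floor on all arrays). Of 6 stellate cell markers 3 rose (7.64 to 8.27 in knockout and 6.92 to 7.22 in wild type), and of 3 neutrophil markers 2 (6.46 to 8.11 in knockout and 4.46 to 5.19 in wild type, with Mpo under the floor). Of 4 intestinal markers only Vil1 rose (6.68 to 7.08 in knockout and 5.99 to 6.24 in wild type). Of 6 macrophage, 5 endothelial and 4 lymphocyte markers 0 passed, and Cd79a and Ms4a1 of B cells lay under the floor. Of 4 lung and 5 skin epithelial markers, from tissues known for Cyp2b10 and Cyp2b19, 0 passed and 3 in each list lay under the floor. The part of these cell types in the Cyp2b values was not tested. The 3′ minus 5′ log2 difference of beta-actin was 0.57 to 0.78 in knockout and 0.70 to 0.83 in wild type, with KO-03 and KO-90 below all wild types. That of Gapdh was -0.20 to -0.10 in knockout and -0.11 to -0.04 in wild type, with KO-03, KO-90 and KO-94 below all wild types. The part of RNA quality in the Cyp2b values was not tested.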

How the data were processed

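Frozen livers of 4 miR-122 knockout and 3 wild-type mice were profiled on Affymetrix arrays, 1 per animal. The deposited log2 values are RMA output of the authors (Partek), per the submitters' processing notes. No version or detection call was used here. Values lay between 2.204 and 14.887, array medians between 4.65 and 4.72, with 0 missing. No counts lie behind them, so the number of arrays limits the precision. P-values measure only the spread between these livers, since the labels say nothing of litter or batch.

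Of 45101 probe sets, 64 controls were left out. Platform annotation gave 1 symbol for 34945 of the rest, several for 932 and none for 9160, and Entrez identifiers updated 0 symbols. Probe sets were named by that annotation, and promoter windows are RefSeq's (GRCm38.p6, all 7 member genes matched). All 45037 probe sets were fitted with limma 3.58.1 in R 4.3.3 (lmFit, eBayes, two-sided, no covariates), with Benjamini-Hochberg adjustment and a threshold of 0.05. There were 5 residual and 3.8 prior degrees of freedom. Lists were described by counts and medians. Members and lists were chosen with earlier results of these data known, and some genes stand in 2 lists. Named genes are the members, the 4 genes of each list with the smallest p, the cluster genes, the 5 nearest profiles outside the members and the markers. Promoters were aligned globally in Python 3.11.15. On simulated data (10 runs, 200 changed probe sets each) the fit recovered 81.5% of changes of 1 and 99.1% of changes of 2 on the log2 scale, with 6.47% false calls. The simulated noise was normal and independent, without outlying animals or shared array effects, so these rates need not hold for the real arrays. Alternatives were other priors, array weights, renewed normalization, filters on dim probe sets, gene summaries, fewer probe set types and leaving out arrays. The pair KO-03 and WT-104 was left out together as an alternative added after the data were seen.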

Additional observations from a re-analysis of the deposited data

How the results depend on the processing

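The 9 member differences moved by less than 1 SD between animals under every alternative in which they could be fitted, leave-outs included. Only Nr1i3 (0.02), which was not called, changed sign, without KO-03, KO-90, WT-104, or KO-03 and WT-104 (-0.13 at the lowest). The bound for Cyp2b9 was 5.04, and 5.94 against the median control. Probe sets called higher (582) and lower (144) numbered 1177 and 407 with array weights, 1231 and 709 without KO-03 and WT-104, 172 to 1112 and 38 to 268 when 1 array was left out, and 242 lower with a group mean of at least 6.

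List counts were small, so single genes move them. Without 1 array the ranges were 0 to 1 for partners higher and lower, regulators lower, phase I higher and lower, conjugation lower, transporters higher and lower, cluster lower, female-biased higher and metabolic lower, 1 to 3 for metabolic higher and 3 to 6 for male-biased lower. With array weights 1 gene each was called in partners higher and lower, regulators higher, conjugation higher, transporters higher, metabolic lower, cluster lower, female-biased higher and growth hormone lower, and 2 each in conjugation and transporters lower. With 1 probe set per gene, a group mean of at least 6, or the mean of a gene's probe sets, 1 was called in conjugation higher and lower and in female-biased higher. Transporters lower had 2 calls with the first 2 and 1 with the mean, which also called 1 partner higher. At or above the median level, conjugation and transporters lower had 1 each. Repeated quantile normalization gave 1 transporter lower, and leaving out _x_at and _s_at probe sets gave 1 conjugation gene higher. Without KO-03 and WT-104, 1 was called in partners higher and lower, conjugation higher, transporters higher, female-biased higher and growth hormone lower, and 0 in phase I higher. The cause of these moves was not tested.

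Of the 9 called list genes, Ccnd1, Cyp2u1, Elovl3 and Ugt2b38 passed in all 18 alternatives, and 0 of the 9 changed sign in any. No paired analysis was possible because the genotypes share no animal numbers.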

Other observations

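Growth hormone signalling to STAT5, on which the sex bias of Cyp2b9 and Cyp2b13 is known to depend, held no call. Of 10 measured genes 0 passed in limma, with 2 at an unadjusted p under 0.05 (16.3% of all genes were), and the list median was -0.33. Cish, a feedback inhibitor that STAT5 induces, averaged 7.69 ± 0.41 (SD, n = 4) in knockout and 8.86 ± 0.56 (SD, n = 3) in wild type, and the groups did not overlap (limma adjusted p = 0.101). The transcription factor Stat5b was at -0.47 ± 0.14 (SE), the binding protein Igfals at -0.39 ± 0.20 (SE) and the growth factor Igf1 at 0.20 ± 0.10 (SE), with limma adjusted p of 0.189, 0.45 and 0.46.

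The profile of Nr1i3 was followed most closely by the peptidase Dpp4, at a root mean square distance of 0.06 over the 7 arrays, against 0.27 for Nr1i3 from a flat profile. Dpp4 had log2 values of 9.54, 9.95, 9.55 and 9.10 in the knockouts, against 9.63, 9.59 and 9.48 in the wild types, with KO-90 highest and KO-94 lowest as in Nr1i3. Kif27, Ddx43, Hbb-bh1 and Lgals7 came next, at 0.076 to 0.088, and their levels lay under or near the floor. In the female-biased list Cyp4a14, a fatty acid hydroxylase, had 12.13, 11.26, 10.78 and 10.19 in the knockouts, against 11.48, 7.88 and 7.38 in the wild types, so that WT-27 lay within the knockouts and the difference of 2.18 did not pass (limma adjusted p = 0.338). Cyp4a14 was picked after its values were seen.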
